A study of Mus musculus with 9 samples.

Results

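Open chromatin was described at the genes of the Hedgehog pathway in the embryonic mouse cochlear duct: the ligand gene *Shh*, the receptor and signal transducer genes *Ptch1* and *Smo*, the transcription factor genes *Gli1*, *Gli2* and *Gli3*, and the genes of the ligand-binding proteins *Hhip*, *Gas1* and *Boc*. Members were chosen by position alone. A peak belonged to one of these 9 genes where its summit lay nearest to a transcription start site of that gene, among the start sites of protein-coding transcripts and within 500 kb. This gave 381 of the 286921 peaks in 9 deposited lists. Peaks of all lists within 100 bp of each other were merged, which gave 102 Hedgehog regions among 69354 regions over all genes, and 0 of the 102 also held a summit nearest to another gene.

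The samples were cells sorted by FACS from cochlear ducts of the strain B6;129S-Sox2tm2Hoch/J, in which EGFP is knocked into the *Sox2* coding region, so that all groups, the Sox2-EGFP- cells included, carried this allele, and heterozygous embryos were used. Sox2-EGFPhigh+ cells, the cells of the highest EGFP peak, were profiled at embryonic day (E) 12, E14.5 and E16 with 2 samples each. Sox2-EGFP- cells, those of the lowest EGFP peak, were profiled at E14.5 with 1 sample and at E16 with 2, and no E12 sample of these cells was analysed here. Each Sox2-EGFPhigh+ sample pooled the cochlear ducts of a litter, and Sox2-EGFP- cells were in some cases sorted in parallel, so the cell types may share litters. Cells of low EGFP were left out of both sorts, and the tissue of the cochlear nerve was dissected away. Sorting on the reporter keeps every cell of a given brightness, so a group is a mixture of cell types defined by its EGFP level.

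Hedgehog ligands bind the receptor Ptch1, which otherwise holds the membrane protein Smo inactive. Active Smo turns the Gli proteins from repressors into activators of transcription. In the cochlea, Shh is secreted by the spiral ganglion neurons beside the duct, and the signal is known to hold back the differentiation of hair cells, with the longest delay at the apex. *Ptch1*, *Gli1* and *Hhip* are themselves direct targets of the pathway in many tissues. Gas1 and Boc are co-receptors that help cells to bind Shh, and Hhip is a membrane protein that binds the ligand and limits its reach.

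In ATAC-seq, a transposase cuts accessible DNA, and MACS2 calls a peak where cuts pile up. The lists give no reads, so the height of a peak is expressed here as its rank by −log10 p within its own list, where rank 1 is the highest peak. The lists differ in length, from 7577 peaks (E12 replicate 2) to 66332 peaks (E14.5 Sox2-EGFPhigh+ replicate 1). The 2 longest, E14.5 Sox2-EGFPhigh+ replicate 1 and E16 Sox2-EGFPhigh+ replicate 2, held 93 and 90 Hedgehog peaks, the E16 Sox2-EGFPhigh+ replicate 1 list held 54 and the E14.5 Sox2-EGFPhigh+ replicate 2 list 31. The E12 lists held 16 and 7, and the Sox2-EGFP- lists 28 at E14.5 and 32 and 30 at E16. Relative to the length of the list, these are 0.924 to 1.4 Hedgehog peaks per 1000 peaks, with the lowest value in E12 replicate 2. The total over the 9 genes thus roughly followed the length of the list. Single genes differed among lists of similar length. *Gli2* had 4 peaks in E14.5 Sox2-EGFPhigh+ replicate 2 and 8 to 12 in the Sox2-EGFP- lists, and *Gli3* had 10 against 5 to 6. Every deposited peak had already been matched to a second sample of its cell type by the authors, so that agreement within a cell type is built in. The cell type tags of 3 of the 4 E16 samples contradict their titles, and the titles were used.

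The sorts were checked on promoters of marker genes. Promoters of the cochlear epithelium (*Epcam*, *Cdh1*, *Pax2*, *Gata3*, *Esrp1*) had a peak for 3 to 5 of the 5 genes in the Sox2-EGFPhigh+ lists and for 0 of 5 in each Sox2-EGFP- list. Promoters of the otic mesenchyme (*Pou3f4*, *Tbx18*, *Twist1*, *Prrx1*, *Col1a1*) had a peak for 3 to 4 of the 5 genes in the Sox2-EGFP- lists and for 0 to 2 in the Sox2-EGFPhigh+ lists, with *Col1a1* at 0 in all lists. The prosensory list (*Sox2*, *Isl1*, *Jag1*, *Lfng*, *Prox1*) had 3 to 5 promoters with a peak in every list of both cell types. For spiral ganglion neurons the range was 1 to 4 of 5 in Sox2-EGFPhigh+ lists and 0 to 2 in Sox2-EGFP- lists, for glia 0 to 3 and 1 of 5, for endothelium 0 to 2 and 0 to 1, and for macrophages 0 of 5 in every list. The Sox2-EGFP- samples carried promoter peaks of mesenchyme and none at these epithelial promoters, and the comparison of cell types below runs along these markers too. Their part in each result was not tested.

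The DNA that carries the results is shown first, read from the reference genome of the build of the peak lists (mm9) on the forward strand. The first set holds the 6 Hedgehog regions with an exact match to the Gli consensus GACCACCCA less than 200 bp from the highest summit on either side. The match is in capitals, and it reads TGGGTGGTC where it lies on the reverse strand.
Ptch1, promoter of an internal start site (chr13:63667717-63667777): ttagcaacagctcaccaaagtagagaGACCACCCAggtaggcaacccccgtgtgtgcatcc
Ptch1, promoter of the outermost start site (chr13:63674747-63674807): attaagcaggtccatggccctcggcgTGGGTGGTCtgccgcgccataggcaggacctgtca
Smo, 16.6 kb upstream (chr6:29669047-29669107): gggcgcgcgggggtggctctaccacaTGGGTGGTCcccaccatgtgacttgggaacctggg
Gli2, 12.9 kb downstream of the internal start site (chr1:120866094-120866154): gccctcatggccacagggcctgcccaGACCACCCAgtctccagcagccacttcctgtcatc
Gas1, 92.1 kb downstream (chr13:60186497-60186557): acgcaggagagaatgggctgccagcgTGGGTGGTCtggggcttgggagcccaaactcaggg
Boc, 6.7 kb downstream (chr16:44552243-44552303): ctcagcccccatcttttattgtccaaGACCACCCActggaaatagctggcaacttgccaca

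The second set holds the summits of 5 of the regions outside promoters whose ranks separated cell types or stages. Other separated regions, some with larger differences, are described below without their sequence. The capitals mark the 11 bp centred on the highest summit of the region.
Gli3, intron, 243.7 kb downstream (chr13:15799452-15799602): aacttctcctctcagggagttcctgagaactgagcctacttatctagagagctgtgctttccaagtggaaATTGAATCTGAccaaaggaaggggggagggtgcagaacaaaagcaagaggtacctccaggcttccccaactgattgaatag
Gli3, intergenic, 409.9 kb upstream (chr13:15145050-15145200): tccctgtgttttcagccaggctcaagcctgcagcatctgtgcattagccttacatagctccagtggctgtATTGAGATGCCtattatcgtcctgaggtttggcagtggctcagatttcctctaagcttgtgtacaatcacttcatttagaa
Gli3, intron, 161.0 kb downstream (chr13:15716697-15716847): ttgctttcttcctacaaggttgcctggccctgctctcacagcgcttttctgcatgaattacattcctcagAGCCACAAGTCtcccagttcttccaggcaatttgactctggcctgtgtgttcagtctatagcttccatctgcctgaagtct
Gli2, intron, 92.0 kb downstream of the internal start site (chr1:120787101-120787251): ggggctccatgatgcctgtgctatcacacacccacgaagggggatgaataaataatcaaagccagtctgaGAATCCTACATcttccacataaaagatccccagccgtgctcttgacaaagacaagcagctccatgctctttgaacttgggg
Ptch1, intron, 2.5 kb upstream of an internal start site (chr13:63669215-63669365): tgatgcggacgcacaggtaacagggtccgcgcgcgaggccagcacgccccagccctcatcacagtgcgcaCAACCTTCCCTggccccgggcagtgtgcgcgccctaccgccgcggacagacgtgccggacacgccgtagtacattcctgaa

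The Gli consensus was searched on both strands, and it was found in 6 of the 102 Hedgehog regions (5.88%) and in 250 of all 69354 regions (0.36%). Outside promoters it was in 4 of 92 (4.35%) against 0.357%, and in promoters in 2 of 10 against 0.376%. Both promoter matches are those of *Ptch1*. The match lay 6 bp from the summit at *Gas1*, 9 bp at the region upstream of *Smo*, 12 bp at *Boc*, 55 and 57 bp in the *Ptch1* promoters and 129 bp at *Gli2*. The shorter core ACCACCC, which every consensus match contains, was in 11 Hedgehog regions (10.8%) and in 5.67% of all regions. The Sox motif CCATTGTT, chosen because the cells are sorted on *Sox2*, was in 2 (1.96%) and in 2.5%. Searches chosen after these values were seen gave 6 regions (5.88% against 0.65%) when the whole region was read, 17 (16.7% against 8.67%) when 1 mismatch was allowed, and 0 against 0.591% for the letters of the consensus in reverse order. A match is a description of the DNA and does not show binding.

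The 6 regions with the consensus differed in where they were open. The *Ptch1* promoters had peaks in both cell types, in 3 and 4 Sox2-EGFPhigh+ and 2 and 2 Sox2-EGFP- lists. The other 4 had peaks in Sox2-EGFPhigh+ lists alone. The region 92.1 kb downstream of *Gas1* ranked 10623 in E12 replicate 1, 13237 in E14.5 replicate 1 and 22659 and 18751 at E16, and it had no peak in the second replicates of E12 and E14.5. The regions at *Smo*, *Gli2* and *Boc* had peaks in 2 lists each, at ranks from 23378 to 60949. Only the *Gas1* region and a *Ptch1* promoter of these 6 were called at E12, each in replicate 1 alone.

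Most Hedgehog regions lay far from the start sites of their gene. The median distance of the highest summit was 40.6 kb, and the farthest, at *Gli3*, lay 410 kb away. By position, 46 summits fell between genes, 45 within introns, 3 within exons or UTRs and 8 within promoters, defined as the 1000 bp before and 100 bp after a start site. Of the 102 regions, 10.8% lay within 1 kb, 52% between 10 and 100 kb and 24.5% beyond 100 kb, against 21.6%, 45.4% and 16.9% of all regions. A peak within a promoter belonged to 10 regions (9.8%), against 19.9% of all regions.

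**Figure D1:**
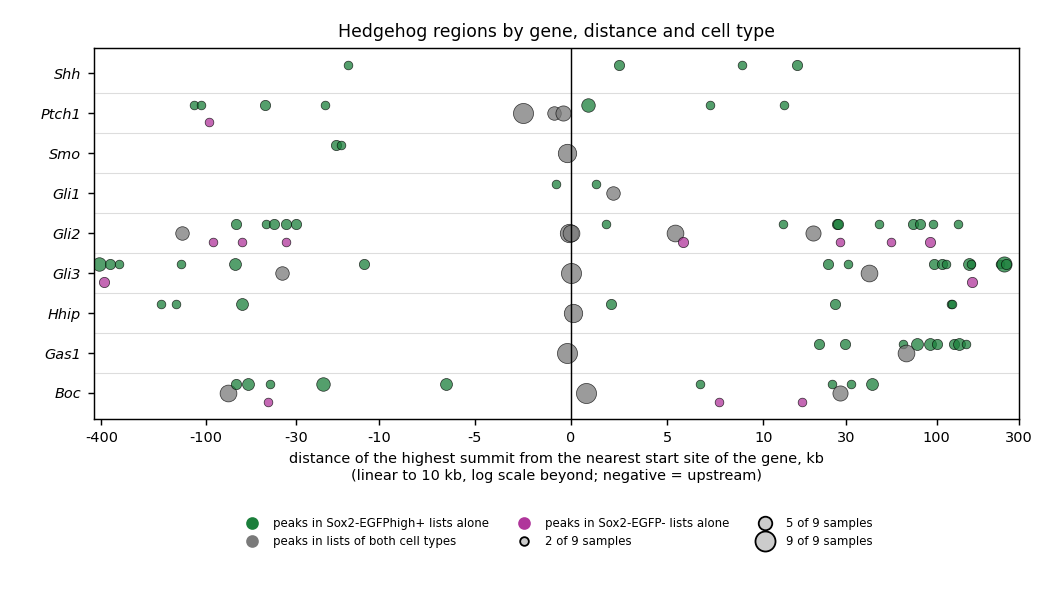
Distance of each of the 102 Hedgehog regions from the nearest start site of its gene, in kb (linear to 10 kb, log scale beyond), with 1 row per gene, coloured by the cell types whose lists hold a peak and sized by the number of samples. Regions with peaks in Sox2-EGFP- lists alone are found at *Ptch1*, *Gli2*, *Gli3* and *Boc* only, and *Gli2* has 7 of the 13.

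*Gli2* had the most regions with 26, followed by *Gli3* with 21, *Boc* with 15, *Ptch1* and *Gas1* with 11 each, *Hhip* with 8, *Shh* with 4, and *Smo* and *Gli1* with 3 each. Peaks of Sox2-EGFPhigh+ lists alone made up 70 regions (68.6%), close to the 65.5% of all regions. Outside promoters they were 75% of the Hedgehog regions and 78.2% of all regions. A total of 19 regions had peaks of both cell types, while 28.8% of all regions did, and 13 (12.7%) had peaks of Sox2-EGFP- lists alone, against 5.63% of all regions. With only peaks of a −log10 q of at least 5, the last count was 8 of 96, against 5.01%. The 2 longest lists were the only source of 30 regions (29.4%, against 35.4% of all regions). The absence of a peak from a shorter list is not read as closed chromatin.

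**Figure D2:**
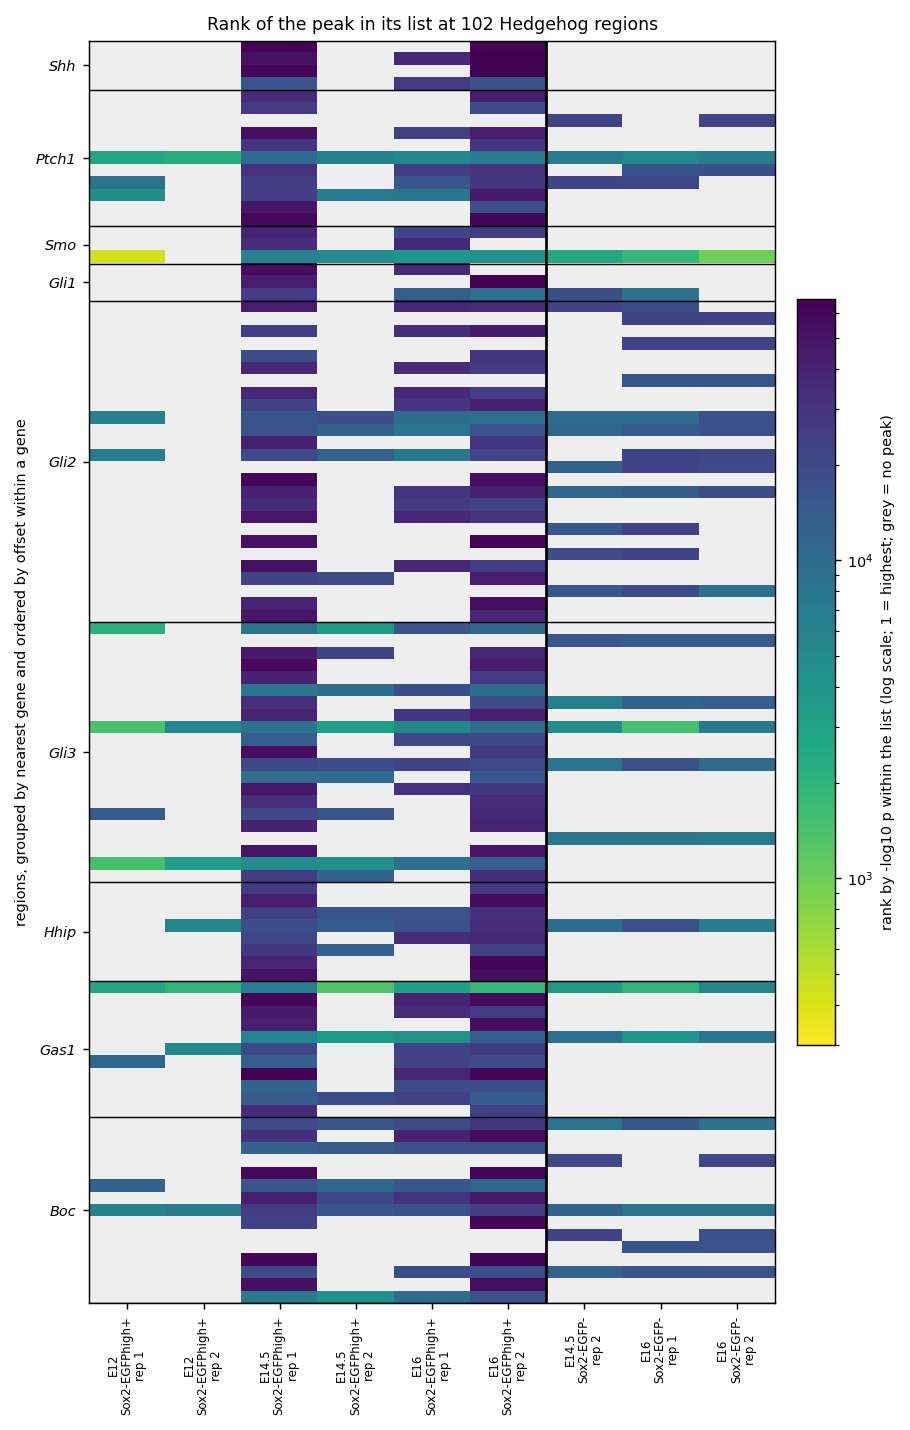
Rank of the highest peak by −log10 p (colour, log scale, rank 1 highest) at the 102 Hedgehog regions (rows, grouped by gene) in the 9 samples (columns, Sox2-EGFPhigh+ left of the thick line). The 4 rows filled in all 9 samples (3.92%, against 7.31% of all regions) belong to *Ptch1*, *Gli3*, *Gas1* and *Boc*. The 4 rows of *Shh* are filled at E14.5 and E16 in Sox2-EGFPhigh+ lists alone.

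*Shh*, the ligand gene, had no promoter peak, no E12 peak and no Sox2-EGFP- peak in these lists. Its 4 regions lay 15 kb upstream, in an intron (2.5 kb downstream), in a coding exon (8.9 kb) and in intergenic sequence 15.7 kb downstream of the single annotated start site. The last, chr5:28777743-28778087, ranked 15881 in E14.5 replicate 1 and 26607 and 16982 at E16. The other 3 ranked between 35437 and 64801, in the lowest part of the longest lists, and 2 of them rested on the 2 longest lists alone. A region nearest to another gene is assigned to that gene, so distant elements of *Shh* inside other genes are not counted here.

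*Ptch1*, the receptor gene, had 11 regions. The intronic region chr13:63669108-63669674, whose summit sequence is printed above, had a peak in all 9 samples. It ranked 2797 and 2319 at E12, 10516 and 6180 at E14.5 and 5290 and 7115 at E16 in Sox2-EGFPhigh+ cells, and 6919 at E14.5 and 5066 and 6712 at E16 in Sox2-EGFP- cells. Both E12 ranks are higher than the 7 others, while the ranks of the 2 cell types overlap. Its fold enrichment over local background was 5.33 in both E12 samples and 3.69 to 5.85 in the other samples, so the order of ranks is not an order of fold enrichment. The 2 promoter regions with the Gli consensus ranked lower, between 8269 and 30564. A further intronic region 0.9 kb downstream of an internal start site (chr13:63664351-63664912) had peaks in 5 Sox2-EGFPhigh+ lists and no Sox2-EGFP- list, with ranks of 4559 at E12, 24777 and 7259 at E14.5 and 7810 and 46098 at E16. These ranks span a wide range within the same stage. The region 96.0 kb upstream had peaks in 2 Sox2-EGFP- lists alone, at ranks 22080 and 21522.

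*Smo*, the gene of the signal transducer, was represented chiefly by its promoter (chr6:29685270-29686650). This region held the highest ranks among all Hedgehog regions, with 433 in E12 replicate 1 and 980 in E16 Sox2-EGFP- replicate 2. In Sox2-EGFPhigh+ cells it ranked 6080 and 4934 at E14.5 and 3764 and 4164 at E16, and E12 replicate 2 had no peak there. In Sox2-EGFP- cells it ranked 2558 at E14.5 and 1852 and 980 at E16, which is higher than every Sox2-EGFPhigh+ rank of these stages. The mean log2 rank was 12.19 in Sox2-EGFPhigh+ and 10.70 in Sox2-EGFP- cells, a difference of 1.48 (two-sided exact permutation test, 4 against 3 samples, p = 0.0286, the smallest this design allows; Benjamini-Hochberg adjusted p = 0.232). The other 2 regions lay 17.6 and 16.6 kb upstream, the former in the UTR of *Tspan33*, with peaks in 3 and 2 Sox2-EGFPhigh+ lists at ranks of 20826 and beyond.

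*Gli1*, whose transcription is a common readout of the pathway, had 3 regions and no E12 peak. Its promoter region (chr10:126778951-126779683) had a peak in 2 Sox2-EGFPhigh+ lists, at ranks 55778 and 33873, and in no Sox2-EGFP- list. The intronic region 2.2 kb downstream (chr10:126775915-126776688) ranked higher, at 24510 in E14.5 replicate 1 and 12968 and 9325 at E16. In Sox2-EGFP- cells it ranked 18135 at E14.5 and 8614 in E16 replicate 1, and replicate 2 had no peak, so the cell types overlap.

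*Gli2*, the gene of the main activator among the Gli factors, had 26 regions, 16 of them with intronic summits. Its 2 promoter regions were called in all Sox2-EGFP- lists and in 5 and 4 Sox2-EGFPhigh+ lists. The outer promoter (chr1:120949826-120950982) ranked 6055 in E12 replicate 1, 15703 and 18360 at E14.5 and 9464 and 8615 at E16 in Sox2-EGFPhigh+ cells, and 9526 at E14.5 and 9643 and 17203 at E16 in Sox2-EGFP- cells. The inner promoter (chr1:120878434-120879598) ranked between 7914 and 16897 without separation of the cell types. Outside promoters, the region called in most Sox2-EGFPhigh+ samples was the intronic region 5.4 kb downstream of the outer start sites (chr1:120944233-120944861; 5 of 6 samples, ranks 6893 to 21310), which also had 2 Sox2-EGFP- peaks, at 22514 and 20652. The farthest region with peaks of both cell types lay 136.1 kb upstream, with ranks of 17961 and beyond.

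At *Gli2*, 3 of the 15 regions tested, all intronic, ranked higher in every Sox2-EGFP- sample than in every Sox2-EGFPhigh+ sample of E14.5 and E16. None ranked in the opposite direction. Over all regions tested, the shares were 10.6% and 8.51%. The region 92.0 kb downstream of the internal start site (chr1:120786786-120787306) ranked 14864 at E14.5 and 19800 and 8727 at E16 in Sox2-EGFP- cells and had no Sox2-EGFPhigh+ peak. The region 5.8 kb downstream of the same start site (chr1:120873109-120873761) ranked 11781, 22591 and 20103 in these lists and also had no Sox2-EGFPhigh+ peak. The third, 19.4 kb downstream of the outer start sites (chr1:120930353-120931079), ranked 11133, 13402 and 18384 in Sox2-EGFP- lists and 29358 to 41246 in the 3 Sox2-EGFPhigh+ lists with a peak. Another 5 regions had peaks in 2 Sox2-EGFP- lists alone, 90.2, 61.8 and 34.5 kb upstream and 27.5 and 54.7 kb downstream of the nearest start site, at ranks from 15022 to 23135. The distances of 90.2 and 61.8 kb are measured from the outer start sites, and the region at 34.5 kb lies in an intron upstream of the inner one.

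*Gli3*, the gene of the main repressor among the Gli factors, showed separated regions in both directions. Its promoter (chr13:15554524-15556335) had a peak in all 9 samples, at 1418 and 5423 at E12, 8607 and 3085 at E14.5 and 5346 and 9801 at E16 in Sox2-EGFPhigh+ cells. In Sox2-EGFP- cells it ranked 4639 at E14.5 and 1490 and 7290 at E16, within the range of the Sox2-EGFPhigh+ samples. The regions that separated the cell types lay in introns or upstream, and the promoter itself did not (difference of mean log2 rank 0.73, exact permutation test, p = 0.4).

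The intronic region 243.7 kb downstream of the *Gli3* start (chr13:15799178-15799955), printed above, had a peak in all 6 Sox2-EGFPhigh+ samples and no Sox2-EGFP- peak. It ranked 1450 and 3244 at E12, 4665 and 4339 at E14.5 and 9250 and 13307 at E16. The ranks of the 3 stages did not overlap, with E12 highest and E16 lowest, and both E12 samples ranked higher than all 4 later samples. The fold enrichment was 8.82 and 5.94 at E12, 11.7 and 6.2 at E14.5 and 9.03 and 7.67 at E16, without such an order. Between cell types the separation restates the peak calls, since no Sox2-EGFP- list has a peak here. With the highest 5000 or 10000 peaks, or with all 9 samples, this region no longer separated the cell types.

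Another 2 *Gli3* regions ranked higher in every Sox2-EGFPhigh+ sample, which made 3 of the 13 tested, against 8.51% of all regions tested. The region 409.9 kb upstream (chr13:15144825-15145667) ranked 2136 in E12 replicate 1, 8368 and 3471 at E14.5 and 15971 and 10914 at E16, and it was the farthest Hedgehog region of all. The region 67.9 kb upstream (chr13:15487020-15487541) ranked 7613 and 9337 at E14.5 and 17978 and 9366 at E16. Neither had a Sox2-EGFP- peak. The former no longer separated the cell types with the highest 5000 or 10000 peaks or with all 9 samples, and the latter with the highest 10000.

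In the opposite direction, 4 of the 13 *Gli3* regions tested ranked higher in every Sox2-EGFP- sample, against 10.6% of all regions tested. The intronic region 161.0 kb downstream (chr13:15716473-15717018) ranked 8007 at E14.5 and 7694 and 7000 at E16 and had no Sox2-EGFPhigh+ peak. These ranks lie close together, and the separation restates the peak calls. It was kept with the highest 10000 peaks and lost with all 9 samples, whose ranks were capped at 7577. Its summit lies 82.8 kb from that of the intronic region open in every Sox2-EGFPhigh+ sample, within the same gene. The region 36.1 kb upstream (chr13:15518825-15519303) ranked 6495, 12187 and 13330 in Sox2-EGFP- lists against 31849 and 18608 in the 2 longest lists. The intronic region at 40.9 kb (chr13:15595877-15597223), the farthest with peaks of both cell types, ranked 8263, 17324 and 10143 against 18049 to 22581. The region 383.9 kb upstream (chr13:15171024-15171475) ranked 15403, 14004 and 14217 and had no Sox2-EGFPhigh+ peak, and it lies 26.1 kb from the far upstream region of Sox2-EGFPhigh+ cells.

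**Figure D3:**
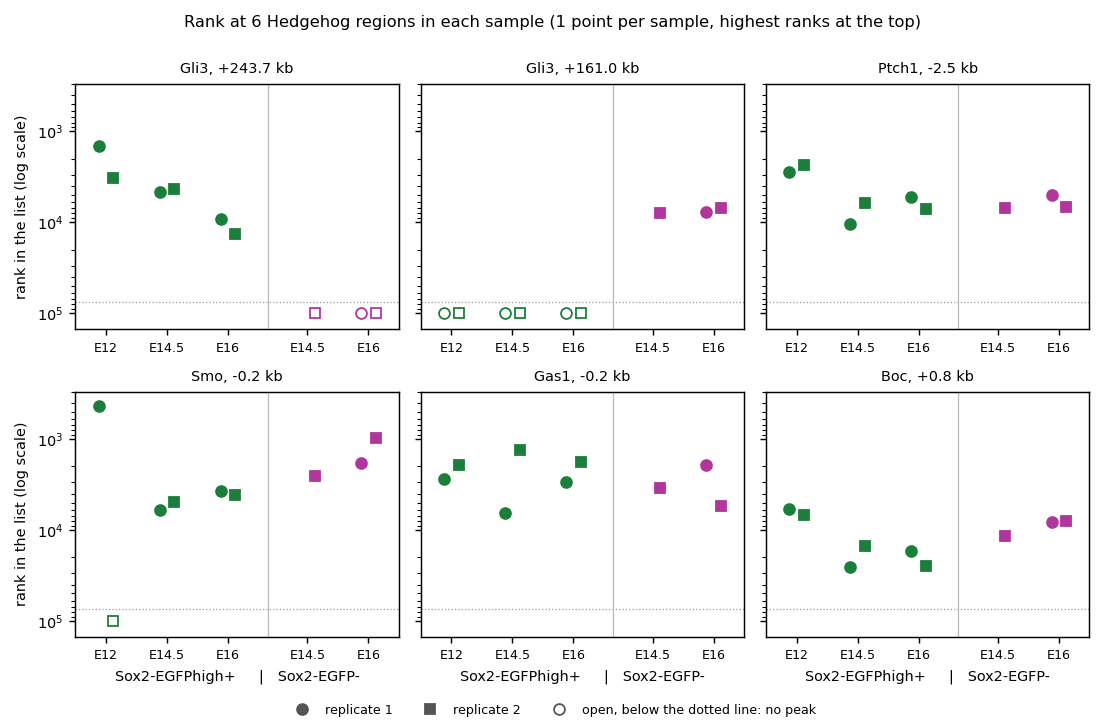
Rank within its list (log scale, highest ranks at the top) at 6 Hedgehog regions, with 1 point for each of the 9 samples and open points for lists without a peak there. The *Gli3* region at +243.7 kb is filled in the 6 Sox2-EGFPhigh+ samples alone and the one at +161.0 kb in the 3 Sox2-EGFP- samples alone, while the *Gas1* promoter is filled in all 9, between 1322 and 6545.

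*Hhip*, the gene of the ligand-binding antagonist and a pathway target, had 8 regions. Its promoter region (chr8:82581119-82582162) had no peak in E12 replicate 1 and ranked 5676 in E12 replicate 2. It ranked 17944 and 14119 at E14.5 and 17562 and 33090 at E16 in Sox2-EGFPhigh+ cells, and 9464 at E14.5 and 17370 and 6716 at E16 in Sox2-EGFP- cells, with an overlap in the middle of these values (difference 0.79, exact permutation test, p = 0.0857). All 7 other regions had Sox2-EGFPhigh+ peaks alone, and 4 of them rested on the 2 longest lists. The one called in most samples lay 61.5 kb upstream (chr8:82643221-82643780) and ranked between 15859 and 31992 in the 4 samples of E14.5 and E16.

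*Gas1*, a co-receptor gene, had 11 regions, and its promoter ranked high in every list. This region (chr13:60277493-60279360) ranked 2747 and 1933 at E12, 6545 and 1322 at E14.5 and 2999 and 1778 at E16 in Sox2-EGFPhigh+ cells. In Sox2-EGFP- cells it ranked 3488 at E14.5 and 1949 and 5464 at E16, and neither cell types nor stages were separated. All 10 other regions lay downstream in intergenic sequence, between 20.9 and 147.5 kb from the start. Of these, the region at 66.7 kb (chr13:60211568-60212282) was shared, at ranks 5600, 3471, 4203 and 13147 in Sox2-EGFPhigh+ and 9184, 3890 and 8149 in Sox2-EGFP- lists, and it had no E12 peak. The other 9 had peaks in Sox2-EGFPhigh+ lists alone. The region at 134.6 kb (chr13:60143839-60144444) ranked 13851, 18536, 22950 and 13799 in the 4 Sox2-EGFPhigh+ lists of E14.5 and E16, higher than the absent Sox2-EGFP- peaks.

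*Boc*, the other co-receptor gene, had 3 separated regions in each direction among 10 tested. The shares of all regions tested were 8.51% (Sox2-EGFPhigh+ higher) and 10.6% (Sox2-EGFP- higher). The *Boc* promoter region (chr16:44557857-44559101) had peaks in all 9 samples. It ranked 5954 and 6848 at E12, 25549 and 14925 at E14.5 and 16869 and 24907 at E16 in Sox2-EGFPhigh+ cells. In Sox2-EGFP- cells it ranked 11545 at E14.5 and 8253 and 7895 at E16, higher than all 4 Sox2-EGFPhigh+ samples of these stages but not higher than the E12 samples. With all 9 samples compared at the length of the shortest list, the difference of the means reversed from 1.07 to −0.08. The regions 74.0 kb upstream (chr16:44632320-44633351) and 27.8 kb downstream (chr16:44530422-44531369) also ranked higher in every Sox2-EGFP- sample, at 8551 to 14970 and at 12285 to 16737, against 15287 to 27523 and 17793 to 19207 where Sox2-EGFPhigh+ peaks were called. In the opposite direction, the region 42.2 kb downstream (chr16:44516576-44517090) ranked 6923 and 4297 at E14.5 and 9469 and 16881 at E16, a separation lost with the highest 5000 or 10000 peaks and with all 9 samples. The region 20.9 kb upstream (chr16:44579529-44580252) had peaks in 5 of 6 Sox2-EGFPhigh+ lists, the most of any *Boc* region outside the promoter, at ranks 11087 to 15563. The region 57.0 kb upstream (chr16:44615413-44616848) ranked 12125 to 17565. None of these 3 had a Sox2-EGFP- peak, and 3 further regions, 43.7 kb upstream and 7.7 and 16.7 kb downstream, had peaks in 2 Sox2-EGFP- lists alone, at 15582 to 22542.

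Counted over the 59 Hedgehog regions with a peak within the highest 22962 of a list, the length of the shortest list of E14.5 and E16, 7 (11.9%) ranked higher in every Sox2-EGFPhigh+ sample, against 8.51% of the 38499 regions tested over all genes. In the opposite direction, 11 (18.6%) ranked higher in every Sox2-EGFP- sample, against 10.6%. Outside promoters these counts were 7 of 50 (14%) against 10.2%, and 9 of 50 (18%) against 11.5%. All 7 regions of the first kind belong to *Gli3*, *Boc* and *Gas1*, and the 11 of the second to *Gli3*, *Gli2*, *Boc* and *Smo*. The median difference of mean log2 rank, Sox2-EGFPhigh+ minus Sox2-EGFP-, was −0.04 over the 59 regions and −0.02 over all regions tested. All 7 regions of the first kind and 4 of the 11 of the second had no peak of the other cell type. They entered the comparison through the group in which they rank higher, and their separation restates the peak calls. The *Gli2* region 19.4 kb downstream entered in this way too, as its Sox2-EGFPhigh+ peaks, at ranks 29358 to 41246, lay beyond the highest 22962. By the two-sided exact permutation test, 13 of the 59 and 4750 of the 38499 regions had a p under 0.05. After Benjamini-Hochberg adjustment 0 remained, with a smallest adjusted p of 0.232. The 13 include regions that entered through the group in which they rank higher, and for these the p restates the peak calls too. With 35 arrangements of the samples, the smallest p is 0.0286. Of the 24 regions of the mesenchyme markers that were tested, 13 ranked higher in every Sox2-EGFP- sample, and 0 of 4 macrophage regions. With only the highest 10000 peaks of each list the counts were 0 and 2 of 22 regions, against 4.95% and 5.02% of all regions. With all 9 samples at the length of the shortest list they were 0 and 0 of 16, against 1.58% and 2.23%. The regions 134.6 kb from *Gas1*, 19.4 kb from *Gli2*, 383.9 kb from *Gli3* and 20.9 and 27.8 kb from *Boc* were separated under every alternative that tested them. These were the removal of each sample, the replicate block and ranks by fold enrichment. The first and second cannot end a separation while the cap is unchanged. Caps of 5000 and 10000 and the comparison of all 9 samples did not test these regions, whose ranks lay beyond the caps. They are therefore not shown to be more stable than the others.

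Between stages, 14 Hedgehog regions had a peak within the highest 7577 of a Sox2-EGFPhigh+ list, the length of the shortest of these 6 lists. Of these, 3 (21.4%) ranked higher in both E12 samples than in all 4 later samples, against 6.56% of 13665 regions, and 0 ranked lower, against 7.6%. Outside promoters it was 2 of 8 (25%) against 6.83%, and 0 of 8 against 2.76%. The 3 are the intronic *Gli3* region at 243.7 kb, the intronic *Ptch1* region and the *Boc* promoter. At the *Boc* promoter the later ranks all lay beyond 7577. It entered the comparison through its E12 ranks alone, so its call restates which lists rank it within the highest 7577. The *Boc* promoter ranked 6848 in E12 replicate 2, near the end of that list. Its difference of mean log2 rank, E12 minus later, was −0.25, against −1.43 at the *Gli3* and −1.35 at the *Ptch1* region. With 2 samples against 4, the smallest p that 15 arrangements can give is 0.0667, so no test was run. A peak at E12 was called in 16 of the 102 regions (15.7%), against 20.1% of all regions, and the longer of the E12 lists holds 13817 peaks. Without E12 replicate 1, the count of regions ranked higher at E12 was 5 of 12 (against 26.9%), and without E12 replicate 2 it was 12 of 26 (against 24.2%). Neither *Shh* nor *Gli1* had a peak at E12.

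**Figure D4:**
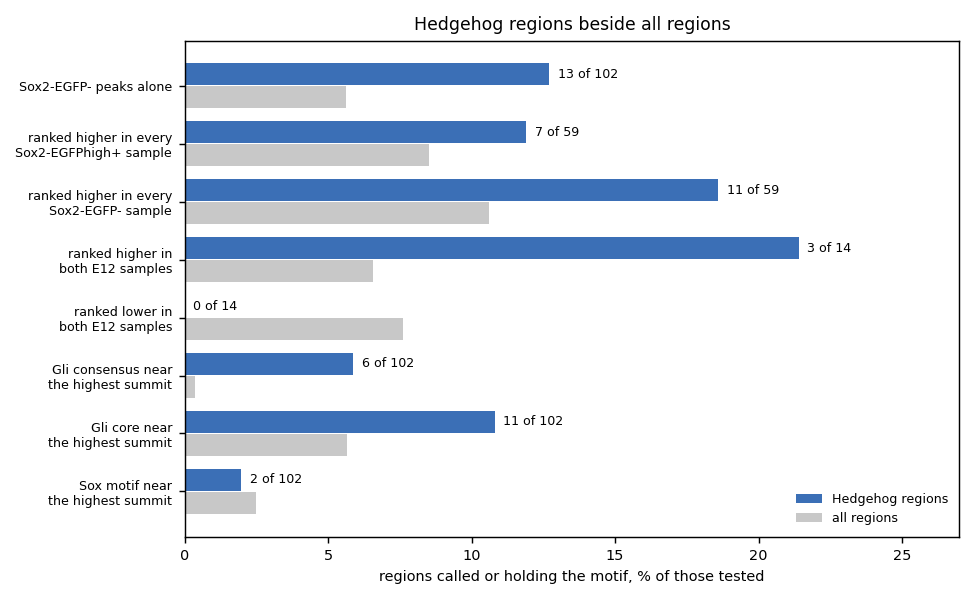
Share of Hedgehog regions (blue, with counts) and of all regions (grey) that were called in each comparison or held a motif, in % of the regions tested. The Gli consensus is in 5.88% of Hedgehog regions and 0.36% of all regions, and the share ranked lower in both E12 samples is 0 of 14.

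The base composition of the Hedgehog regions was close to that of all regions of the same kind, with a median GC content of 50.6% against 49.1% for regions with Sox2-EGFPhigh+ peaks alone and 60.7% against 61.7% for regions of both cell types. It was 54.1% against 49.4% for the 13 regions with Sox2-EGFP- peaks alone.

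The other genes of the pathway were read from a list of 25, of which 24 were matched. A promoter peak was present in at least 1 Sox2-EGFPhigh+ list for 22 of the 24 and in at least 1 Sox2-EGFP- list for 21. No share over all genes is given beside these promoter counts. *Sufu*, whose protein holds Gli factors in check, and *Cdon*, the co-receptor related to Boc, had promoter peaks in all 9 samples. The ligand genes *Dhh* and *Ihh* had them in 3 and 2 Sox2-EGFPhigh+ lists and in 0 and 2 Sox2-EGFP- lists, none of them at E12. Of the 58 regions of this list that were tested, 3 ranked higher in every Sox2-EGFPhigh+ sample and 7 in every Sox2-EGFP- sample, 2 of the latter at *Sufu*. The shares over all regions tested were 8.51% and 10.6%. Between stages, 1 of 23, at *Cdon*, ranked higher in both E12 samples and 0 ranked lower, against 6.56% and 7.6% of all regions tested. For 8 genes known as Hedgehog targets in other tissues (*Mycn*, *Ccnd1*, *Ccnd2*, *Bcl2*, *Foxc2*, *Foxf1a*, *Nkx2-2* and *Nkx6-1*), 7 and 4 of 53 regions were separated between the cell types in these directions. Between stages it was 0 of 11 in either direction. The same shares of all regions stand beside these counts, and no difference from them was tested. *Ccnd1*, the cyclin gene, had promoter peaks in 4 Sox2-EGFPhigh+ lists and no Sox2-EGFP- list. Of its 9 tested regions, 2 ranked higher in every Sox2-EGFPhigh+ sample, against 8.51% of all regions tested.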

How the data were processed

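Peak lists of ATAC-seq were analysed for 6 Sox2-EGFPhigh+ and 3 Sox2-EGFP- samples. Per the methods of the study and the submitters' processing notes, the authors used Trim Galore for trimming, Bowtie2 for alignment to mm9, and Picard and SAMtools for the removal of duplicate and mitochondrial reads. MACS2 calls were made per sample, and peaks without a counterpart in a second sample of the type were dropped. Tool versions are not given in the sources used here. The deposited fold enrichment is a ratio, the summit pileup over local background, and the deposited −log10 p and −log10 q are those of MACS2 within the sample. The deposited score was not used. The lists hold no reads, so the read count at a single peak is unknown. The supplement of the study does give the reads of each sample and the percentage of them in peaks. Both varied widely, with the fewest reads at E12 and very different percentages between the E14.5 Sox2-EGFPhigh+ replicates. Ranks were not adjusted for either. A missing peak, above all in the short E12 lists, is not a closed region.

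Peaks were assigned to the nearest start site of 51720 protein-coding transcripts (GENCODE annotation of mm9), merged within 100 bp into regions, and ranked by −log10 p in each list (Python 3.11.15, NumPy 2.4.6, SciPy 1.17.1, matplotlib 3.10.9; merging was checked against bedtools 2.31.1). For the cell types (4 Sox2-EGFPhigh+ and 3 Sox2-EGFP- samples of E14.5 and E16) ranks were capped at 22962, and for the stages at 7577. An absent or lower peak took the next rank, and regions without a peak within the cap in any sample compared were not tested. A region was called where the ranks of the groups did not overlap. Mean log2 ranks were compared by a two-sided exact permutation test with Benjamini-Hochberg adjustment over all regions tested. The scripts were tested on simulated data. Per the methods, each Sox2-EGFPhigh+ sample pooled the cochlear ducts of a litter, and Sox2-EGFP- cells were in some cases sorted in parallel. Samples of both cell types may therefore share a litter, which the permutation test does not take into account.

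The members and all lists were chosen with earlier results of these data known. Regions named are the promoter regions of each gene, the region outside promoters called in most Sox2-EGFPhigh+ samples, those separating cell types (up to 3 in each direction) or stages, those with peaks in at least 2 Sox2-EGFP- lists alone, and the farthest with peaks of both types. All regions of *Shh* and *Smo*, the *Ptch1* region at 0.9 kb and those with a Gli consensus were named beyond this rule, after their values were seen. Alternatives were a −log10 q of at least 5, a merging distance of 0 bp, start sites of all transcripts, 100 kb, regions outside promoters, other caps, the highest 7000 peaks, ranks by fold enrichment, other samples, sequencing batch 2 alone, and a replicate block. The pairing rests on replicate numbers: the difference between E16 replicates 1 and 2 correlated with r = 0.19 between the cell types over 35154 regions, and both E16 replicates numbered 1 form sequencing batch 1. Marker lists of other cell types are given by promoter peaks. Some values are not reported here.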

Additional observations from a re-analysis of the deposited data

Results flagged for a closer look

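At the outer *Gli2* promoter the cell types were ordered in opposite ways at the 2 stages. At E16, both Sox2-EGFPhigh+ samples (9464 and 8615) ranked higher than both Sox2-EGFP- samples (9643 and 17203), a difference of mean log2 rank of −0.51. At E14.5, both Sox2-EGFPhigh+ samples (15703 and 18360) ranked lower than the single Sox2-EGFP- sample (9526), a difference of 0.83. The difference between the stages was not tested, and the nearest E16 values of the cell types, 9464 and 9643, lie closer together than the replicates of either group.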

How the results depend on the processing

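The number of Hedgehog regions, 102, lay between 77 and 105 except with the highest 7000 peaks of each list, which left 17 regions. Of these, 9, 2 and 6 (against 34.6%, 11.2% and 54.2% of all regions) had peaks of Sox2-EGFPhigh+ cells alone, of Sox2-EGFP- cells alone and of both. A −log10 q of at least 5 left 8 regions of Sox2-EGFP- cells alone, and 10 regions outside promoters had peaks of both. The 7 and 11 regions that ranked higher in every Sox2-EGFPhigh+ and in every Sox2-EGFP- sample became 0 and 1 with ranks capped at 5000, 0 and 2 at 10000, 0 and 0 with all 9 samples, and 11 and 17 with E16 alone (against 20.1% and 24.3% of all regions), and the first was 4 within 100 kb. The cause was not tested. Leaving out each sample in turn gave 7 to 10 and 11 to 15, against 8.51% to 13.2% and 10.6% to 16.8% of all regions. The 18 separated regions kept their call in 126 of 126 such values, which is no measure of stability. Ranks of groups that do not overlap stay apart when a sample is removed and the cap is unchanged. With the 2 longest lists left out, chosen after seeing the data, the counts were 10 and 11 of 54. Ranks by fold enrichment ended the call of 3 of the 18, and with all 9 samples the *Boc* promoter reversed to −0.08. The 3 regions ranked higher at E12 became 71 of 89 with no cap, where 73.5% of all regions were called, and 3 to 12 when each sample was left out. Those ranked lower became 2 with E14.5 alone and 0 to 1 when each sample was left out. In batch 2 alone the counts were 8 and 15 of 58 for the cell types (against 12.7% and 18.8%) and 3 and 0 of 14 for the stages (against 8.27% and 10%), and batch 1 held 2 samples. With the replicate block over 3 pairs, the counts were 7 and 12, against 12.2% and 17% of all regions, and the median difference was −0.03. The 18 separated regions kept their call, as groups without overlap must when compared in pairs. The Gli consensus was in 17 regions with 1 mismatch and in 0 with its letters reversed.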
